A study of Mus musculus with 10 samples.

Results

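The epithelial genes examined here were Cdh1, Epcam, Esrp1, Ocln, Krt8, Krt18, Grhl2, Cldn3, Cldn4 and Cldn7, 10 of the 21000 mouse protein-coding genes with a curated RefSeq transcript. They were taken as epithelial genes that are closed in mouse embryonic fibroblasts (MEFs) and switched on early in reprogramming, and each was described by the ZFP266 binding sites that overlapped it or lay within 50 kb of it. These windows held 16 of the 15119 DamID-seq peaks of the study. In the mesenchymal-epithelial transition, fibroblasts lose their mesenchymal shape and gain cell junctions, apical-basal polarity and a keratin cytoskeleton. It is an early step in the reprogramming of fibroblasts to induced pluripotent stem cells. ZFP266 is a zinc finger protein with a KRAB domain, a domain known for recruiting repressors to chromatin, and B1 is a short interspersed element (SINE) of rodents derived from 7SL RNA.

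The study mapped ZFP266 binding in wild-type MEFs of the 129 strain. There were 5 samples nucleofected with PGK-mO-Dam-Zfp266, which encodes Dam methylase fused to ZFP266, and 5 with PGK-mO-Dam, which encodes Dam alone. In both plasmids mOrange is the first open reading frame under the PGK promoter and Dam is translated only by reinitiation, so the bound protein was an exogenous fusion made from a plasmid. Each sample started from 100000 cells, and cells carrying a plasmid were sorted after 48 h, by mOrange as the labels state it and by GFP as the methods state it. Dam methylates GATC sites near the bound protein, so that a peak is 1 or more DNA fragments between GATC sites, and all 15119 peaks began and ended at one. The deposited list pools the 10 samples: it gives nothing for individual samples, their read depth is unknown, and no replicate error or test between groups could be given. No expression was measured in these samples, so the closed state of the genes and the identity of the cells could not be checked against markers.

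Of the 10 epithelial genes, 7 had a peak in the gene or within 50 kb, whereas 49.7% of all protein-coding genes did. The genes with peaks were Krt8 with 6, Krt18 with 5, Cdh1 and Cldn4 with 4 each, Cldn3 with 3, and Epcam and Cldn7 with 1 each. Esrp1, Ocln and Grhl2 had none. Krt8 and Krt18 shared 5 peaks and Cldn3 and Cldn4 shared 3, so the 16 peaks came from 5 separate loci. A peak overlapped the gene itself at 2 of 10, Cdh1 and Krt8, beside 17.1% of all genes. Krt8 was the only one of the 10 whose transcript start was covered by a peak, as was the start of 1.5% of all genes. The count depended on the limits: within 10 kb, 4 of the 10 genes had a peak, beside 27.2% of all genes. With peaks of q under 0.05 and a signal value above 1, 3 did, Cldn4, Krt8 and Krt18, beside 21.9%.

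The sequences below show B1 SINEs from 5 of these peaks; 8 of the 16 peaks held none. The first is the B1 consensus of 143 bases that was built from the GRCm38.p6 genome and used to find B1 SINEs. The other 5 are the B1 SINEs closest to it in peaks near Epcam, Cldn4, Krt18, Cdh1 and Cldn7. They are read along the strand of the element, with capitals at each base that differs from the consensus. The Cdh1 copy also lacks 1 consensus base inside it, which the capitals do not mark.
B1 consensus: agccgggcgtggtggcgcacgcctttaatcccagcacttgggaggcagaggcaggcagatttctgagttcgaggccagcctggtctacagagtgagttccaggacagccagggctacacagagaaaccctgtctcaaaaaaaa
B1 upstream of Epcam, chr17:87622008-87622149, minus strand: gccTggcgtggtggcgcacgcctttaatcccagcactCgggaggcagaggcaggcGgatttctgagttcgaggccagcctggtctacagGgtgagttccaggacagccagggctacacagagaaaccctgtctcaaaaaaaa
B1 between Cldn4 and Cldn3, chr5:134950115-134950256, plus strand: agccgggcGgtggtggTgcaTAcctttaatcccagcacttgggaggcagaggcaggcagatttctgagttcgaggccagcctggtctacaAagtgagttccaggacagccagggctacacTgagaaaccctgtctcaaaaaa
B1 between Krt8 and Krt18, chr15:102018653-102018794, plus strand: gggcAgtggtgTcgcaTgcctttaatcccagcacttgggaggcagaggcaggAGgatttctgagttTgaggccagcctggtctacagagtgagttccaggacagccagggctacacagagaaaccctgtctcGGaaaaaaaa
B1 in intron 2 of Cdh1, chr8:106621139-106621280, minus strand: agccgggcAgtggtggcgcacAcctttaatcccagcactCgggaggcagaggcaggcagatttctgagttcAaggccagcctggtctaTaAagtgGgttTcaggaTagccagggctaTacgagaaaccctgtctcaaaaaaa
B1 downstream of Cldn7, chr11:69993597-69993737, minus strand: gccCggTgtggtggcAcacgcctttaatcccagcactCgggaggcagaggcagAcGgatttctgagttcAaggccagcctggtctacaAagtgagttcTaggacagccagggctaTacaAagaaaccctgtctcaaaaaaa

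These copies were chosen as the closest to the consensus at each locus, and their identity to it ran from 92.2% at Cldn7 to 97.2% at Epcam. All 15 B1 SINEs in the 16 peaks ran from 71.8% to 97.2%, and the median over the 285675 B1 SINEs found in the genome was 87.0%. The Epcam copy differed at 4 of its 142 bases and the Cldn4 copy at 6. All 5 were nearly full length, between 141 and 142 bases.

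The AP-1 motif was searched as TGACTCA on both strands, the core bound by the somatic JUN and FOS factors. It occurred 5 times in 4 of the 16 peaks. The 4 sites at Cdh1, Krt8 and Krt18 are printed along the plus strand of GRCm38.p6 with 20 bases to each side and the core in capitals.
AP-1 site in intron 2 of Cdh1, chr8:106619789-106619835: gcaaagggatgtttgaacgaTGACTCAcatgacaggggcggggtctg
AP-1 site in intron 1 of Krt8, chr15:102003414-102003460: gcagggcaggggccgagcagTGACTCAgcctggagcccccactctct
AP-1 site in exon 1 of Krt8, chr15:102004200-102004246: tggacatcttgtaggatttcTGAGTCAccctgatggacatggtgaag
AP-1 site downstream of Krt18, chr15:102045764-102045810: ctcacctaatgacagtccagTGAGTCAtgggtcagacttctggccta

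None of the 5 cores lay inside a B1 SINE, and over all peaks 0.740% of 10273 cores did.

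**Figure D1:**
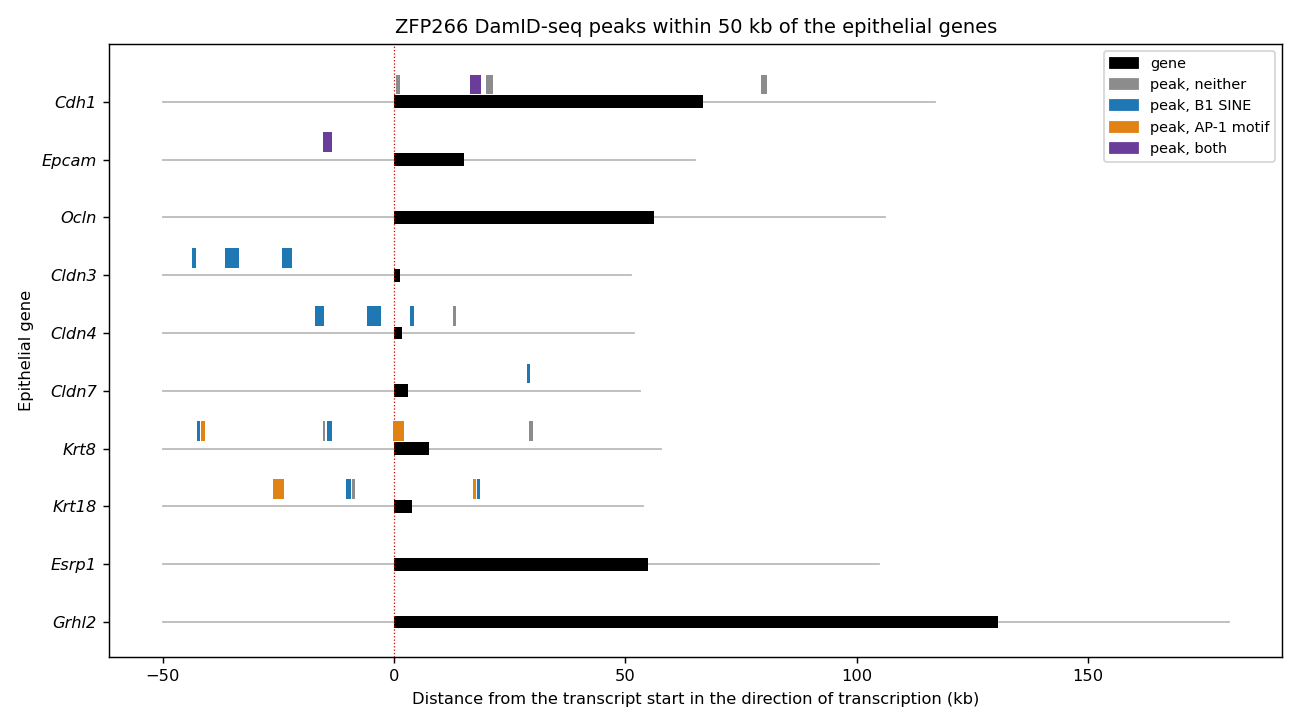
Position of the peaks around the 10 epithelial genes, with distance from the transcript start in kb along the direction of transcription on the x axis and 1 row per gene. Black bars are genes, grey lines the windows of 50 kb to each side and coloured bars the peaks by content. Peaks sat on Cdh1 and Krt8, flanked 5 other genes and were missing from the windows of Ocln, Esrp1 and Grhl2.

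Cdh1 encodes E-cadherin, the adhesion molecule of epithelial adherens junctions, and lies on the plus strand at chr8:106603350-106670247. It had 3 peaks inside the gene and 1 beyond its end. The first peak, of 683 bases at chr8:106603877-106604559, began 526 bases after the transcript start, in intron 1, and ran over exon 2 into intron 2. It covered 121 coding bases and no untranslated ones. Its signal value, the list's own measure of Dam-ZFP266 over Dam alone whose scale the methods do not state, was 0.952 at q = 0.0371. A signal of this size was higher than that of 59.3% of all peaks.

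This peak held no B1 SINE, no AP-1 core and no soft-masked base, and its GC content was 57.1%. It did hold 3 E-boxes, counted as CAGGTG on both strands, the sequence to which the SNAIL and ZEB repressors of E-cadherin bind. They lay 563, 725 and 1027 bases after the transcript start. E-boxes of this kind were in 64.7% of all peaks. The first 300 bases of the peak, all in intron 1, are shown with the 2 E-boxes that they hold in capitals.
Cdh1 intron 1, chr8:106603877-106604176, plus strand: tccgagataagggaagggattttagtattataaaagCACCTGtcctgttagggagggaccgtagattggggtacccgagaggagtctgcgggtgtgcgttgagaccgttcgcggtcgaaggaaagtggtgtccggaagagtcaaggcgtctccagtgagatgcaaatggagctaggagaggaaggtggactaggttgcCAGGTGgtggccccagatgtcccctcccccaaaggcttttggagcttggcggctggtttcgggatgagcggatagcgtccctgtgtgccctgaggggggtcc

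Of the other 3 peaks of Cdh1, 2 lay deeper in the gene and 1 beyond it. In intron 2, a peak of 2483 bases at chr8:106619766-106622248 reached a signal value of 0.961 at q = 0.0116, the smallest q at this locus. It was 1 of 2 peaks near the epithelial genes that held both a B1 SINE and an AP-1 core. Its 2 B1 SINEs had 92.3% and 75.0% identity to the consensus, and the AP-1 core lay 1323 bases from the nearer of them. A further peak of intron 2, chr8:106623310-106624775, had a signal value of 0.994 but a q of only 0.0933, and it held neither. The fourth peak, 12476 bases beyond the gene, had its midpoint in intron 1 of Tango6 and covered the start of that gene, which was 301 bases from its midpoint. It had the highest signal value of the locus, 1.16, at q = 0.0515.

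Epcam encodes the epithelial cell adhesion molecule EpCAM and lies at chr17:87635979-87651127. Its single peak, chr17:87620524-87622529, was intergenic and ended 13449 bases upstream of the transcript start, which was the nearest start of any protein-coding gene. The signal value was 0.988 at q = 0.0334. This was the other peak with both features: the AP-1 core lay 344 bases from a B1 SINE that was the closest to the consensus of all B1 SINEs in the 16 peaks.

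The claudins are membrane proteins that seal tight junctions. Cldn4 and Cldn3 lie head to head, Cldn4 on the minus strand at chr5:134945123-134946934 and Cldn3 on the plus strand at chr5:134986214-134987476. The 39279 bases between their starts held no other protein-coding gene. They did hold 2 peaks, both with B1 SINEs. The nearer to Cldn4 began 2803 bases upstream of its transcript start, spanned 2988 bases and 5 fragments, and had a signal value of 0.796 at q = 0.0104. That was the smallest q among the 16 peaks, and its 3 B1 SINEs were the most in any of them, equalled at Cldn7.

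The second peak between both genes, chr5:134962001-134964075, had a signal value of 0.748 at q = 0.0504 and held 2 B1 SINEs. Downstream of Cldn4, 1649 bases past its end, a peak with 2 diverged B1 SINEs of 78.9% identity each had the lowest signal value of the 16, 0.592, at q = 0.0307. The fourth peak of the locus lay in intron 3 of Mettl27, 10910 bases downstream of Cldn4 and 52001 bases from Cldn3, just outside the limit for that gene. Its signal value of 1.26 was the highest of the 16, at q = 0.0189, and it held no B1 SINE. None of the peaks at this locus contained an AP-1 core.

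Cldn7 on chr11:69964779-69967886 had 1 peak, 25574 bases downstream of its end, in intron 3 of Gabarap, an autophagy gene. The nearest transcript start was that of Phf23, 1902 bases from the midpoint. The peak was short, 808 bases, and packed with repeats: 82.7% of it was soft-masked, and 3 B1 SINEs on the minus strand took 141, 145 and 135 of its bases. The signal value was 0.930 at q = 0.0620. It held no AP-1 core.

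Ocln encodes occludin, another membrane protein of tight junctions, and had no peak in its window. The nearest lay 53915 bases upstream, in intron 3 of Marveld2, which encodes the related tight junction protein tricellulin. It had a signal value of 1.06 at q = 0.0938, without a B1 SINE or an AP-1 core. The window of Ocln held 70 B1 SINEs and 32 AP-1 cores, all outside peaks.

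Krt8 and Krt18 encode the partner keratins of the simple epithelial cytoskeleton. They are also arranged head to head, Krt8 on the minus strand at chr15:101996711-102004342 and Krt18 on the plus strand at chr15:102028216-102032026. The peak on Krt8, chr15:102002126-102004483, was a single fragment of 2358 bases. It covered the transcript start, exon 1, and part of intron 1, with 342 coding bases. Its signal value was 1.06 at q = 0.0184, and 75.2% of all peaks had a lower signal. It was 1 of 2 peaks near the epithelial genes with q under 0.05 and a signal value above 1, the other being that in Mettl27. Over the whole list 26.4% of peaks met both limits.

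The Krt8 peak held the 2 AP-1 cores shown above, no B1 SINE, 3 E-boxes and 5 KLF motifs. KLF motifs were counted as CCACACCC, CCACGCCC, CCCCACCC or CCCCGCCC on both strands, the sites of KLF4 and its relatives. The peak ended within the promoter. The E-box marked below, 111 bases before the transcript start, lay inside the peak. The KLF motif marked below, 160 bases before that start, lay outside it. The 250 bases before the Krt8 start, from the RefSeq promoter table in GRCm38.p6, are shown along the minus strand with a KLF motif and an E-box in capitals.
Krt8 promoter, chr15:102004343-102004592, minus strand: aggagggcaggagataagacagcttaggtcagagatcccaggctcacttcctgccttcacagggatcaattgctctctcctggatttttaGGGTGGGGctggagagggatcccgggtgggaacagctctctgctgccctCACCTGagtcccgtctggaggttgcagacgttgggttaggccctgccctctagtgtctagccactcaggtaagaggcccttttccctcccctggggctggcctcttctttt

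Promoters of 7 of the epithelial genes were in that table, and the one of Krt8 was the only one with a peak over it, for 191 of its 300 bases. Promoters of this length held the KLF motif in 29.7%, the E-box in 20.2% and the AP-1 core in 5.20% of 32851 entries. Among the 7 genes, Cldn3, Cldn7, Ocln, Krt8 and Krt18 had a KLF motif there, and Cldn4 and Epcam had none. Each of the 7 had an E-box in at least 1 entry. These are counts of genes, and Cldn7 and Ocln had more than 1 entry, whereas the shares are of entries. Promoter entries were missing for Cdh1, Esrp1 and Grhl2.

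The 23873 bases between Krt8 and Krt18 held no other protein-coding gene and 2 peaks. The first, chr15:102017784-102018912, carried the B1 SINE printed above and had a signal value of 0.969 at q = 0.0232. The second, of 505 bases, ended 8472 bases upstream of Krt18 and was the peak nearest to that gene. It had a signal value of 1.14 at q = 0.0883, with neither feature. Beyond Krt18, at 13254 and 14167 bases from its end, lay a peak with an AP-1 core and one with a B1 SINE, at q = 0.0844 and 0.0711. The last peak of the locus lay 21490 bases downstream of Krt8, held neither feature and had q = 0.0926.

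The remaining genes are regulators of the epithelial state and had no peak. Esrp1 encodes an epithelial splicing regulator and lies at chr4:11331933-11386783. The nearest peak was 147453 bases away, an intergenic site nearest to Ccne2, with a signal value of 1.67 at q = 0.000956. Grhl2 encodes a grainyhead transcription factor that activates Cdh1 and claudin genes, and lies at chr15:37233036-37363569. Its nearest peak was 94904 bases downstream, its midpoint 20 bases from a transcript start of Ncald, with an AP-1 core and q = 0.0658. Grhl2 was the longest of the genes, 130534 bases, and its window held 71 B1 SINEs and 47 AP-1 cores. The grainyhead motif AACCGGTT, which is its own reverse complement, was in none of the 16 peaks and in 0.694% of all peaks.

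**Figure D2:**
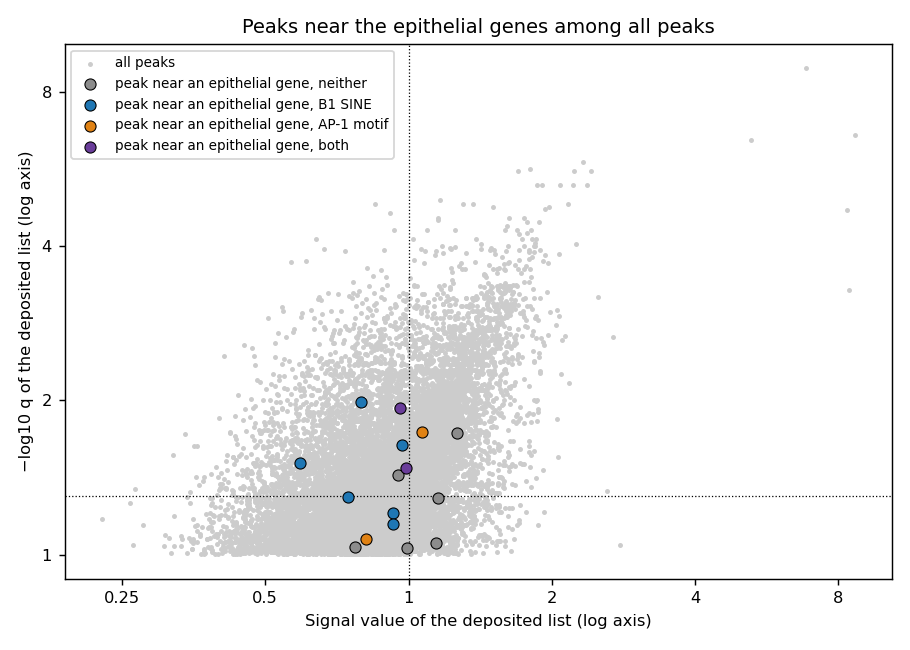
Signal value on the x axis and −log10 q on the y axis, both as deposited and on log axes, for all 15119 peaks in grey and the 16 peaks near the epithelial genes in colour by content. Dotted lines mark a signal value of 1 and q = 0.05. The 16 peaks lie within the main cloud, between 0.592 and 1.26, and 2 lie above both lines.

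The 16 peaks lay inside the range of the whole list in signal. Their median signal value was 0.956 and that of all peaks 0.898. A q under 0.05 was reached by 8 of the 16 and by 52.5% of all peaks. They were shorter, with a median of 1058 bases against 1777, and richer in G and C, with a median GC content of 51.0% against 43.5%. By their midpoints 7 lay in introns, 9 were intergenic and none was in a promoter or exon, beside 42.6% intronic and 53.7% intergenic of all peaks. A promoter was counted here from 1000 bases before to 100 bases after a transcript start, so the midpoint of the Krt8 peak fell in intron 1. For the same reason the peak over the start of Tango6, with its midpoint 301 bases after that start, was counted as intronic.

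B1 SINEs were in 8 of the 16 peaks, beside 33.2% of all peaks. Of 12121 peaks with lengths in the range of these 16, from 505 to 2988 bases, 31.0% held one. All 7 genes with a peak had at least one B1-containing peak in their window, that is 7 of 10, beside 30.5% of all genes. In the gene lists described below, 16 of 43 further epithelial genes and 9 of 12 mesenchymal genes had one. AP-1 cores were in 4 of the 16 peaks, beside 44.2% of all peaks and 39.3% of those in the same range of length. Cdh1, Epcam, Krt8 and Krt18 had a peak with an AP-1 core, 4 of 10 genes beside 31.1% of all genes, and the claudins had none. With any base in the centre of the core (TGANTCA), 8 of the 16 peaks held it, beside 57.8% of all peaks. Both features occurred together in 2 of the 16, beside 14.6% of all peaks, and 6 held neither. The KLF motif was in 11 of 16 peaks beside 41.9%, and the E-box in 12 beside 64.7%. These shares were not matched for length or GC content. The B1 consensus itself contains GGGCGTGG, the reverse complement of the KLF motif CCACGCCC, so B1 SINEs and KLF motifs were not counted independently.

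**Figure D3:**
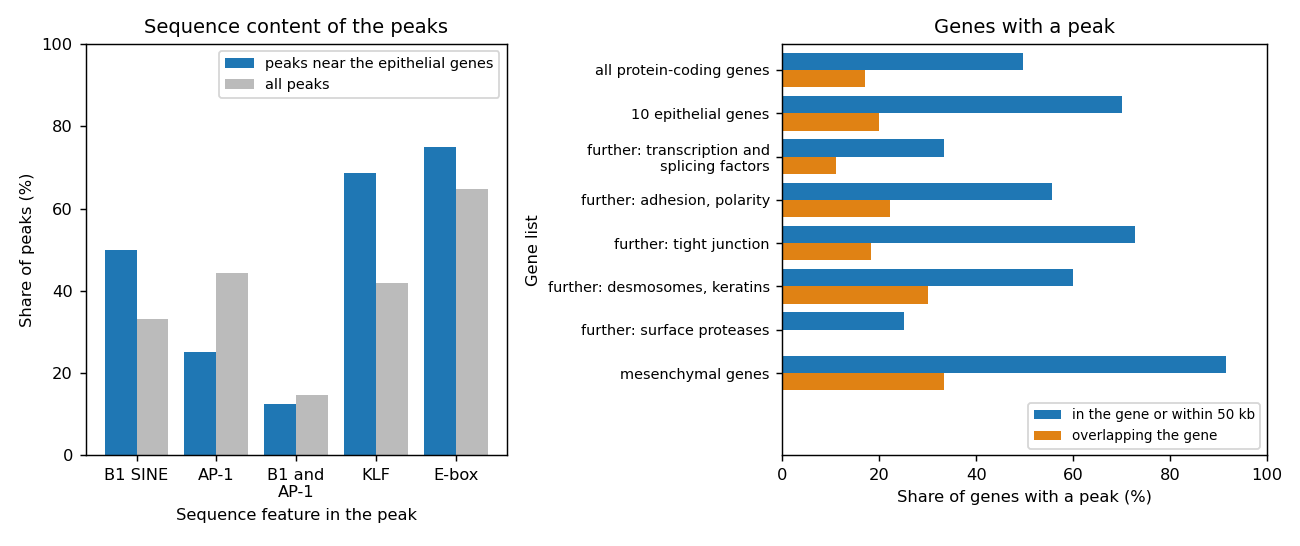
Left, the share of peaks in percent on the y axis that held a B1 SINE, an AP-1 core, both, a KLF motif or an E-box, for the 16 peaks near the epithelial genes and for all peaks. Right, the share of genes in percent on the x axis with a peak in the gene or within 50 kb and with a peak overlapping the gene, for each gene list. B1 SINEs stand at 50% against 33.2%, and AP-1 cores at 25% against 44.2%.

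The windows themselves were rich in B1 SINEs. Their median was 44.1 B1 SINEs per 100 kb, beside 16.9 around all protein-coding genes, and 9 of the 10 values were above 30 per 100 kb. Krt8 had the lowest density, 21.4, and Cldn3 the highest, 60.2, above 98.2% of all genes. Of the 508 B1 SINEs in these windows 15 touched a peak, 2.95%, and of those in the genome 2.54% did. Of the bases in the windows 1.81% lay in peaks, and of the genome without gaps 1.18%. The density of peaks was 13.3 per Mb in the windows and 5.71 per Mb in the genome, which includes stretches far from genes. Per gene window, the mean was 2.4 peaks for the 10 genes and 1.16 for all protein-coding genes. Of the 246 AP-1 cores in the windows 5 lay in peaks, 2.03%, beside 2.37% in the genome. Of the genes without a peak, Ocln had 44.8, Esrp1 39.4 and Grhl2 30.8 B1 SINEs per 100 kb, all within the range of the genes with one.

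**Figure D4:**
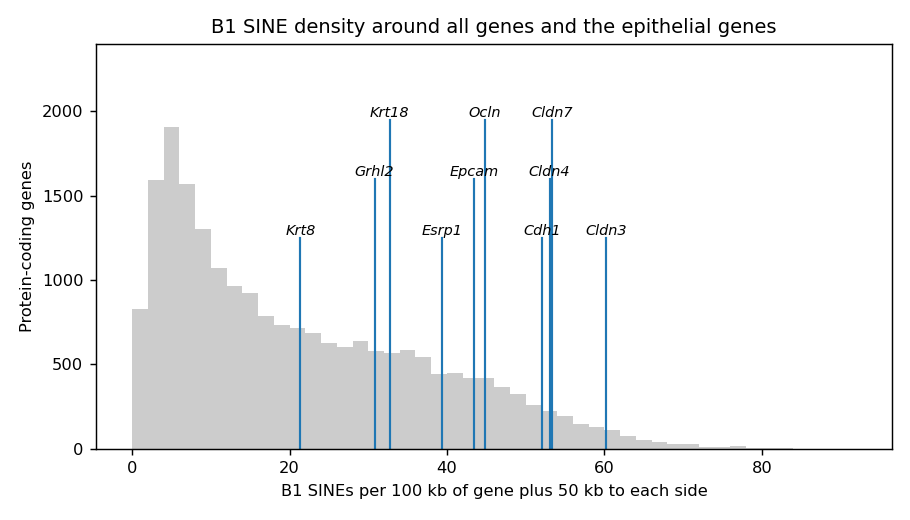
Number of protein-coding genes on the y axis by the B1 SINEs per 100 kb of the gene and 50 kb to each side on the x axis. Blue lines mark the 10 epithelial genes, which range from 21.4 at Krt8 to 60.2 at Cldn3.

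Longer genes have longer windows. All 5 epithelial genes of up to 10 kb had a peak within 50 kb, beside 38.9% of 7728 genes of that length. These 5, Krt8, Krt18, Cldn3, Cldn4 and Cldn7, form only 3 loci. Of the 5 longer genes 2 had one, beside 54.0% of 11632 genes from 10 kb up to the length of Grhl2.

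Further epithelial genes were counted in 5 lists of 43 genes in all. The counts are of genes, so listed genes that lie near each other can share a peak. A peak in the gene or within 50 kb was found at 23 of them, 53.5%, and a peak overlapping the gene at 8, 18.6%, close to the shares of all genes. Among transcription factors and a splicing factor, 3 of 9 had a peak within 50 kb, and Grhl3, a relative of Grhl2, had one in intron 1, 684 bases from its start, with a signal value of 0.568 at q = 0.0821. Of the genes of adherens junctions, polarity and adhesion 5 of 9 had one. The peaks inside genes were in intron 2 of Cdh3, which encodes P-cadherin and lies next to Cdh1, at q = 0.0405, and in intron 2 of the polarity gene Llgl2 at q = 0.0977. Of the tight junction genes 8 of 11 had one, inside the gene at Marveld2 and at Cgn, which encodes cingulin, at q = 0.0550.

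Of the desmosome and keratin genes 6 of 10 had a peak within 50 kb, and 3 had peaks inside. Jup, which encodes plakoglobin, had 2 peaks in intron 1, at q = 0.00932 and 0.0951, the second starting 164 bases from the transcript start. The desmosomal genes Pkp1 and Dsc2 had 2 and 3 peaks inside the gene. The strongest of these lay in intron 13 of Dsc2, with a signal value of 1.59 at q = 0.00159 and with both a B1 SINE and an AP-1 core. Of 4 genes of epithelial surface proteases and their inhibitors 1 had a peak within 50 kb and none inside.

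Genes of the opposite, mesenchymal state were counted in the same way. Peaks were found inside or up to 50 kb from 11 of 12, beside 49.7% of all genes, and inside 4, Cdh2, Zeb1, Zeb2 and Twist2, beside 17.1%. Cdh2, which encodes N-cadherin, had 5 peaks in introns 1 and 2, the first of them with a signal value of 1.18 at q = 0.00869. Zeb1 and Zeb2, which encode repressors of Cdh1, had 1 peak each inside the gene, at q = 0.0709 and 0.0856, and both peaks held a B1 SINE. The peak in Zeb2 also held 4 AP-1 cores. None of the 5 peaks in Cdh2 and the 1 in Twist2 held a B1 SINE, and 2 of those in Cdh2 held an AP-1 core. The mesenchymal genes were longer, with a median of 27545 bases against 11390.5 for the 10 epithelial genes. Of all genes from 10 kb up to the length of Grhl2, 54.0% had a peak within 50 kb and 20.2% one inside. That range did not match the mesenchymal genes, which ran from 2161 to 220370 bases. Cdh2, Zeb1 and Zeb2, which had peaks inside, were longer than Grhl2.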

How the data were processed

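The data were DamID-seq libraries of 5 samples with Dam-ZFP266 and 5 with Dam alone. The authors removed adapters with Cutadapt, aligned reads to GRCm38 with BWA (GRCm38.p6 in the submitters' processing notes), removed mitochondrial and blacklisted reads, used Rsubread to assign reads to DpnII fragments, and called peaks by Daim. The deposited list gives for each peak, over all samples together, a score up to 1000, a signal value and −log10 values of p and q, of which the p was not used. The methods name FDR < 0.05 and a log2 fold change above 1 as example limits, and the deposited q reaches 0.1000.

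Genes were protein-coding genes with curated RefSeq transcripts (GRCm38.p6, 45756 transcripts). A peak counted if it overlapped the gene or lay within 50 kb. All peaks of the 10 genes are reported, the genes nearest to them, and from the gene lists those with a peak inside the gene. The consensus of B1 was extended base by base from the commonest 14-base word that 7SL RNA shares with repeats, and elements were found with blastn 2.17.0 (at least 80 aligned bases at 70% identity, e-value limit 10). Motifs were exact matches on both strands. Scripts, in Python 3.11.15 with pandas 2.3.3 and pysam 0.24.0, were tested on simulated data. The genes and lists were chosen with earlier results of these data known. Peaks are therefore described by counts beside those over all peaks and genes, and no test was made. Alternatives were other distances, stricter peaks and other B1 and AP-1 definitions. The sequence of 1 AP-1 site is not reported here.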

Additional observations from a re-analysis of the deposited data

How the results depend on the processing

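Within 10 kb instead of 50 kb, 4 of the epithelial genes had a peak, with 8 distinct peaks, of which 4 held a B1 SINE, 2 an AP-1 core and 1 both, and 27.2% of all genes had one. Within 100 kb, 7 of 21 distinct peaks held an AP-1 core. The share over all peaks, for both distances, was 44.2%. With peaks limited to q under 0.05 and a signal value above 1, 3 genes had a peak within 50 kb and 1 inside the gene; 2 distinct peaks remained, 0 with a B1 SINE, 1 with an AP-1 core and 0 with both, and 21.9% of all genes had one. With peaks above the median score, 8 distinct peaks were counted, 5 with a B1 SINE, and 32.7% of all genes had one. With any base in the centre of the AP-1 core (TGANTCA), 8 peaks held it, beside 57.8% of all peaks. With a B1 SINE as well, 5 did. With the core required within 500 bases of the midpoint, 1 peak held both. For these alternatives, shares over all peaks are not given for the counts of B1 SINEs or of both features. Nor is one given for AP-1 cores among the stricter peaks. Those counts therefore cannot be set against the whole list. The other 23 of 43 recomputed values stayed within 1.5 times. No paired analysis was possible because the list pools the samples and gives no value of a single one, and for the same reason no replicate could be left out. The depth behind each peak is unknown, so a window without a peak does not show that ZFP266 was not bound there. B1 SINEs far from the consensus can be missed.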

Other observations

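The promoter of Cldn4 held 2 AP-1 cores, 240 and 158 bases before the transcript start, and no peak; the nearest peak was 2553 bases away. It was the only 1 of the 7 epithelial genes in the promoter table with a core there.

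Fragments between GATC sites in the windows of the epithelial genes had a median length of 262 bases, and those of them in peaks 744 bases. In the genome these medians were 260 and 889 bases. Fragments of 500 bases or more were in peaks in 2.29% of cases in the windows and in 1.23% in the genome. Esrp1, Ocln and Grhl2 had 117, 101 and 154 fragments of this length in their windows, none of them in a peak.

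Between 50 and 100 kb from the genes, further peaks lay in intron 2 of Cdh3, 74000 bases upstream of Cdh1, and in Tns2, 70827 bases downstream of Krt18. An intergenic peak 99793 bases upstream of Cdh1 held both a B1 SINE and an AP-1 core, with a signal value of 0.941 at q = 0.0700. The peak in Tns2 had a signal value of 0.725 at q = 0.00703 and held neither a B1 SINE nor an AP-1 core.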
